A study of Mus musculus with 6 samples.

Results

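The Krüppel-like factors other than the erythroid one (Klf1) were examined in mouse MLL-AF9 leukaemia cells in which Chaf1b, a subunit gene of the chromatin assembly factor CAF-1, had been deleted. The 10 genes were taken by symbol from the 35869 genes listed in each library: Klf2, Klf3, Klf4, Klf6, Klf7, Klf9, Klf10, Klf11, Klf13 and Klf16. The 3 KO libraries came from cells with floxed Chaf1b alleles and CreERT2, a recombinase that a ligand sends to the nucleus, given β-estradiol (10e-7 M as the labels write it) for 48 h. The 3 WT libraries came from cells with the same floxed alleles and CreERT2 given ethanol vehicle, so WT here means undeleted and not free of transgenes. All cells carried retroviral MLL-AF9, a fusion oncogene of human acute leukaemias, and were grown with stem cell factor at 100 ng/mL, interleukin-6 at 50 ng/mL and interleukin-3 at 20 ng/mL. Whether the replicates of a group were separate cultures or clones is not stated in the labels, so p-values measure only the spread between these libraries, which may be technical. The ligand and the deletion cannot be told apart, since every KO library and no WT library had β-estradiol.

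Krüppel-like factors (KLFs) bind GC-rich and CACCC elements in promoters through a C-terminal array of zinc fingers that is nearly the same in all of them, and differ in the parts that recruit other proteins. Klf2, Klf4, Klf6 and Klf7 belong to the group that mostly activates transcription, Klf3 recruits the co-repressor CtBP, and Klf9, Klf10, Klf11, Klf13 and Klf16 carry a motif that binds the co-repressor Sin3. In myeloid cells Klf4 is known for driving monocyte differentiation and Klf2 for restraining inflammatory activation, and several members are induced within minutes to hours by growth factors, stress or fluid shear.

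Of the 10 genes, 9 were expressed highly enough to be tested, and 2 differed between KO and WT: Klf3 was higher and Klf16 lower in KO. Klf2, Klf6 and Klf11 were high in WT replicate 1 and at other levels in WT replicates 2 and 3, so their comparison turned on that library. Expression is given as TPM, a share of all transcripts in a library corrected for gene length, so levels can be compared between genes. The 13575 genes that reached 1 TPM in 3 or more of 6 libraries were tested with limma on log2(TPM + 1), and called at a Benjamini-Hochberg adjusted p under 0.05 over all of them. Every fold change is on that log2(TPM + 1) scale. Over all tested genes 12.9% were called higher and 6.11% lower in KO, against 1 higher and 1 lower of the 9 KLF genes. The median log2 fold change was 0.20 for the 9 genes and 0.01 for all tested genes.

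The libraries were checked before the family was compared. Chaf1b had 17.7, 14.4 and 14.2 TPM in the 3 KO libraries, against 48.6, 49.0 and 50.6 TPM in WT. The labels give about 120 M reads of 100 bp per sample, but TPM keeps no depth, so counting error is unknown. Replicates 2 and 3 of each group were alike (Pearson's r across genes of log2(TPM + 1) was 0.998 in KO and 0.998 in WT), and replicate 1 stood apart in both, with r of 0.991 to 0.992 in KO and 0.984 to 0.986 in WT. KO replicate 1 was nearer to the WT libraries (r of 0.982 to 0.986) than KO replicates 2 and 3 were (0.961 to 0.967). The file of WT replicate 1 is marked in its header as a replacement, with no word on what was replaced. Of 10 genes that mark myeloid leukaemia cells, such as Ptprc and Kit, all were detected in every library. Kdr and Tek of endothelium, Ms4a1 and Ebf1 of B cells, Cd4 and Cd8a of T cells and Slc4a1 of red cells were listed at 0 in all, but other markers of those lineages were not. Both tested B cell markers were called higher, Cd79b with 28.6 ± 2.76 TPM in KO and 18.8 ± 1.99 TPM in WT (SD, n = 3 each; limma adjusted p = 0.020) and Cd79a at lower levels (adjusted p = 0.045). Of 3 tested endothelial and stromal markers Col1a1 was called higher, with 1.4, 2.8 and 2.2 TPM in KO, against 0.6, 0.2 and 0.3 TPM in WT. Pecam1, also made by leukocytes, was at 63.4 to 66.2 TPM in KO and 60.8 to 79.1 TPM in WT without a call, and Cdh5 was at 0.5 to 1.5 TPM in KO and listed at 0 in WT. None of 3 tested red cell markers was called (2 higher at an unadjusted p under 0.05), and the 8 listed summed to 16.7 to 25.8 TPM in KO and 9.9 to 18.7 TPM in WT. The 10 myeloid leukaemia genes went both ways, 4 higher and 1 lower. Their summed level of 7147.7 to 9926.5 TPM in KO and 4182.9 to 4609.1 TPM in WT was mostly that of the granule protease genes Elane and Prtn3 and of Mpo, the myeloperoxidase gene, all 3 called higher. Mpo averaged 1854 ± 725 TPM in KO and 76.9 ± 54.4 TPM in WT (SD, n = 3 each), while Hoxa9 fell, with 174.0 ± 11.2 TPM in KO and 212.7 ± 8.47 TPM in WT (SD, n = 3 each; adjusted p = 0.029). The summed level of 11 markers of maturing neutrophils was 662.7 to 1490.4 TPM in KO, against 483.6 TPM in WT replicate 1 and 114.3 and 145.8 TPM in WT replicates 2 and 3. The sum of 9 monocyte and macrophage markers was 1284.8 to 1595.7 TPM in KO and 1065.5 to 1149.2 TPM in WT, with Ms4a7 listed at 0 in all. Most of that sum was Ly6c2, with means of 1297 TPM in KO and 1009 TPM in WT. At lower levels, Fcgr1 averaged 24.7 TPM in KO and 2.93 TPM in WT, and Mpeg1 35.7 TPM in KO and 4.97 TPM in WT. Adgre1 averaged 58.5 TPM in KO and 57.5 TPM in WT without a call. Csf1r, too low to be tested, averaged 0.6 TPM in KO and 0.77 TPM in WT. Of the tested markers, 4 of 8 neutrophil and 3 of 5 monocyte genes were called higher and none lower. For all 13575 tested genes the shares called were 12.9% higher and 6.11% lower, and 5161 had an unadjusted p under 0.05. In bulk RNA, fewer cells of a type and less RNA per cell cannot be told apart, and the part of cell maturation or of other cell types in the values below was not tested.

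Sequences before the start sites of Klf2, Klf3, Klf6 and Klf11 are shown because these are the genes the results turn on: the one called higher and the 3 that were high in WT replicate 1. They are RefSeq promoter windows on GRCm38.p6 (mm10), which matched 8 of the 10 genes (all but Klf10 and Klf16), printed 5′ to 3′ up to the earliest start in RefSeq or GENCODE. Capitals mark the GC box GGGCGG, the CACCC box and a MEF2-type motif (CTA, any 4 bases, TAG), each searched on both strands. Where marked motifs overlap or adjoin, the capitals run together.
Klf2 (chr8:72318812-72319032, plus strand): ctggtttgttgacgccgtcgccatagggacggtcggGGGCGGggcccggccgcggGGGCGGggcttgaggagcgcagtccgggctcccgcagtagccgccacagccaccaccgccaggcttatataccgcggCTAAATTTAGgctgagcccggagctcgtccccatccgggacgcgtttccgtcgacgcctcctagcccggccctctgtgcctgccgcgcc
Klf3 (chr5:64803271-64803387, plus strand): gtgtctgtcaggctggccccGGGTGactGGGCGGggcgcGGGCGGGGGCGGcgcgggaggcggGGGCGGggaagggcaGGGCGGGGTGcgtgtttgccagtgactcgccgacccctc
Klf6 (chr13:5861239-5861481, plus strand): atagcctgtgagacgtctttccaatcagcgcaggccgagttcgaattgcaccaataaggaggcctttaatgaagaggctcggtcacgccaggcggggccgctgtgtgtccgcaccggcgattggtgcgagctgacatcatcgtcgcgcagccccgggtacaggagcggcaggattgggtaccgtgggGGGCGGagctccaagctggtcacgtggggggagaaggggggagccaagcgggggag
Klf11 (chr12:24651121-24651273, plus strand): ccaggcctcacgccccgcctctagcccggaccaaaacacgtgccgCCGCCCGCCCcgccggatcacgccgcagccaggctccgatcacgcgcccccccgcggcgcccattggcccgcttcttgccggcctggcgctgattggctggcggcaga
The Klf2 stretch held the motif CTAAATTTAG at chr8:72318944-72318953, which no other of the 8 windows held. In the full windows, of 300 bases with 250 before and 50 after the RefSeq start, the MEF2-type motif was in 3.69% of 32851 windows of all genes, the GC box in 35.7% and the CACCC box in 57.5%. The Klf3 window held 6 GC boxes and 5 CACCC boxes, the Klf6 window 1 and 0, and the Klf11 window 4 and 0. A match of letters describes the window and says nothing of binding.

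In the activator group, Klf2 (chromosome 8, 72319033 to 72321656, plus strand), a shear- and MEF2-responsive factor of quiescent lymphocytes, monocytes and endothelium, was listed at 7.1, 6.0 and 5.8 TPM in KO, against 51.0, 7.0 and 6.3 TPM in WT. A single library was high: WT replicate 1 was 7.67 times the mean of WT replicates 2 and 3, and the other 5 libraries lay within 5.8 to 7.1 TPM, with the groups overlapping. The KO mean was 6.3 ± 0.7 TPM and the WT mean 21.4 ± 25.6 TPM (SD, n = 3 each), and the log2 fold change of -0.99 (SE 0.74) was not called (limma adjusted p = 0.37). Without WT replicate 1 the log2 fold change was -0.07 (adjusted p = 0.59).

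Klf6 (chromosome 13, 5861482 to 5870394, plus strand), an early-response factor of injury and a regulator of macrophage activation, was listed at 31.4, 43.8 and 39.0 TPM in KO, against 52.4, 19.7 and 21 TPM in WT. All 3 KO libraries lay between WT replicate 1 and the other WT libraries, so the groups overlapped. With all libraries Klf6 was not called (log2 fold change 0.42, SE 0.37, limma adjusted p = 0.45). Without WT replicate 1 Klf6 was called higher (log2 fold change 0.86, SE 0.14, adjusted p = 0.020). KO averaged 38.1 ± 6.25 TPM (SD, n = 3), or 1.87 times WT replicates 2 and 3.

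Klf7 (chromosome 1, 64029447 to 64122282, minus strand), a factor of neurons and blood progenitors, was listed at 9.6, 8.9 and 8.8 TPM in KO, against 8.9, 7.5 and 8.4 TPM in WT, and the groups overlapped (log2 fold change 0.13, limma adjusted p = 0.29). The microRNA Mir6899 lies inside it and was listed at means of 82.8 TPM in KO and 85.1 TPM in WT; how reads in both were counted is unknown here. Klf4 (chromosome 4, 55527143 to 55532466, minus strand), the monocyte factor, was listed at 0.1, 0.2 and 0.1 TPM in KO and at 0 in all WT libraries. These values are 1 or 2 steps of the files' rounding to 0.1 TPM, and Klf4 was not tested. Without a filter on low values, where 11.9% of genes were called higher and 2.91% lower, it was called higher (log2 fold change 0.18, limma adjusted p = 0.044), with Klf3 the other KLF gene higher and Klf16 the 1 lower. It was the lowest of the 10 genes in every library.

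**Figure D1:**
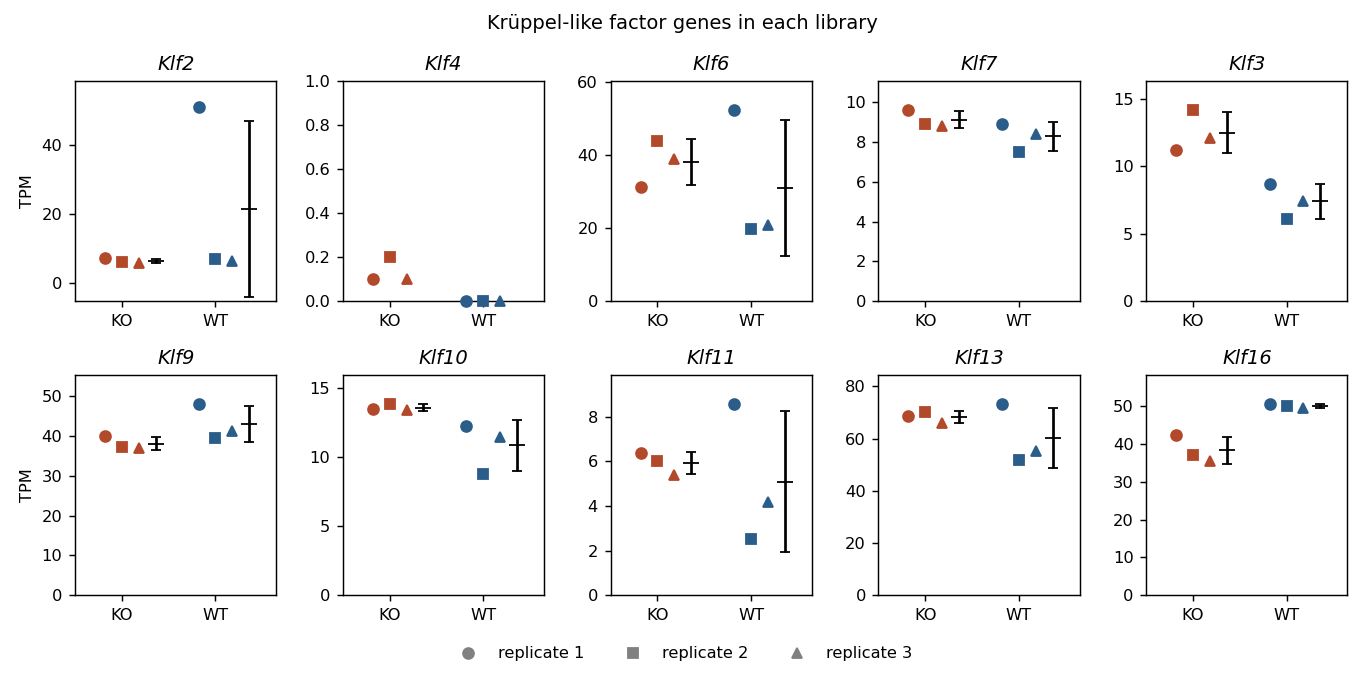
TPM of each KLF gene in the 3 KO (left) and 3 WT (right) libraries, with marker shape giving the replicate; the vertical axis differs between panels, and bars are mean ± SD of 3 libraries (none for Klf4). Klf2 is at 51.0 TPM in WT replicate 1 and at 5.8 to 7.1 TPM in the other 5 libraries, while the KO and WT points of Klf3 and Klf16 do not overlap.

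Klf3 (chromosome 5, 64803388 to 64832901, plus strand), the CtBP-recruiting repressor that also acts in B cell and red cell differentiation, was listed at 11.2, 14.2 and 12.1 TPM in KO, against 8.7, 6.1 and 7.4 TPM in WT. Every KO library was above every WT library. The means were 12.5 ± 1.54 TPM in KO and 7.4 ± 1.3 TPM in WT (SD, n = 3 each), a ratio of 1.69, and Klf3 rose by a log2 fold change of 0.69 (SE 0.14, limma adjusted p = 0.026). The call was lost when KO replicate 2, KO replicate 3, WT replicate 2 or WT replicate 3 was left out (adjusted p of 0.103, 0.111, 0.075 and 0.088), with log2 fold changes of 0.57 to 0.71. In those fits 109, 0, 25 and 15 of all 13575 tested genes were called, against 2575 with all libraries. Gm38457, a RefSeq gene that overlaps the start of Klf3, averaged 1.47 TPM in the KO libraries and 1.03 TPM in WT, while no source used here says whether counting used strand.

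In the Sin3-binding group, Klf16 (chromosome 10, 80567124 to 80577321, minus strand), a GC-box repressor studied in dopamine receptor genes, was listed at 42.4, 37.0 and 35.6 TPM in KO, against 50.7, 50.1 and 49.5 TPM in WT. Every KO library was below every WT library, and WT replicate 1 lay with the other WT libraries (1.02 times their mean). The means were 38.3 ± 3.59 TPM in KO and 50.1 ± 0.6 TPM in WT (SD, n = 3 each), and Klf16 fell by 0.38 on the log2 scale (SE 0.07, limma adjusted p = 0.023). This call too was lost without KO replicate 2, KO replicate 3, WT replicate 2 or WT replicate 3 (adjusted p of 0.106, 0.108, 0.083 and 0.085), with log2 fold changes of -0.39 to -0.33. In those fits, as given for Klf3, at most 109 of all 13575 tested genes were called.

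Klf13 (chromosome 7, 63886351 to 63938915, minus strand), which regulates chemokine expression in T cells, was listed at 68.8, 70.3 and 65.9 TPM in KO, against 73.4, 51.8 and 55.2 TPM in WT. The groups overlapped through WT replicate 1, and Klf13 was not called (log2 fold change 0.20, SE 0.13, limma adjusted p = 0.31). Without that library the fold change was 0.35 (SE 0.05, adjusted p = 0.019), a call toward higher. Gm27252 and E030018B13Rik, on the opposite strand within it, were under 1 TPM on average in both groups. Klf13 had the highest mean of the 10 genes in both groups.

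Klf11 (chromosome 12, 24651274 to 24662789, plus strand), a TGF-beta-inducible factor, was listed at 6.4, 6.0 and 5.4 TPM in KO, against 8.6, 2.5 and 4.2 TPM in WT. As for Klf6, the KO libraries lay between WT replicate 1 and the other WT libraries. Klf11 was not called (log2 fold change 0.31, SE 0.35, limma adjusted p = 0.55), and its fold change was 0.70 without WT replicate 1 (adjusted p = 0.038) and -0.030 without WT replicate 2 (adjusted p = 0.95).

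Klf10 (chromosome 15, 38291463 to 38300706, minus strand), the other TGF-beta-inducible factor, was listed at 13.5, 13.9 and 13.4 TPM in KO, against 12.3, 8.8 and 11.5 TPM in WT. All KO libraries were above all WT libraries, but the log2 fold change of 0.31 (SE 0.12) was not called (limma adjusted p = 0.11; 0.043 without WT replicate 1). Klf9 (chromosome 19, 23141226 to 23168134, plus strand), which glucocorticoid and thyroid hormone induce, was listed at 40.0, 37.2 and 37.1 TPM in KO, against 48.2, 39.5 and 41.4 TPM in WT, with overlapping groups (log2 fold change -0.17, SE 0.08, adjusted p = 0.20).

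The 2 groups were fully separate for 3 of the 9 tested genes (Klf3, Klf10 and Klf16), against 42.8% of all tested genes. An exact two-sided permutation test of TPM gave p = 0.1 for these 3 genes, the smallest that 3 against 3 libraries allow, and 0.2 to 0.7 for the other 6. Without WT replicate 1, 35.7% of all tested genes were called, 21.6% higher and 14.2% lower. Of the 9 KLF genes 5 were then higher (Klf3, Klf6, Klf10, Klf11 and Klf13) and 1 lower (Klf16), with a median log2 fold change of 0.35. With KO replicate 1 and WT replicate 1 both left out, 55.8% of all genes were called (28.4% higher and 27.3% lower), and so were Klf3 (0.87), Klf6 (0.99), Klf13 (0.34) and Klf16 (-0.45), each with its log2 fold change. Klf2, Klf7 and Klf9 were called in none of these 3 fits.

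**Figure D2:**
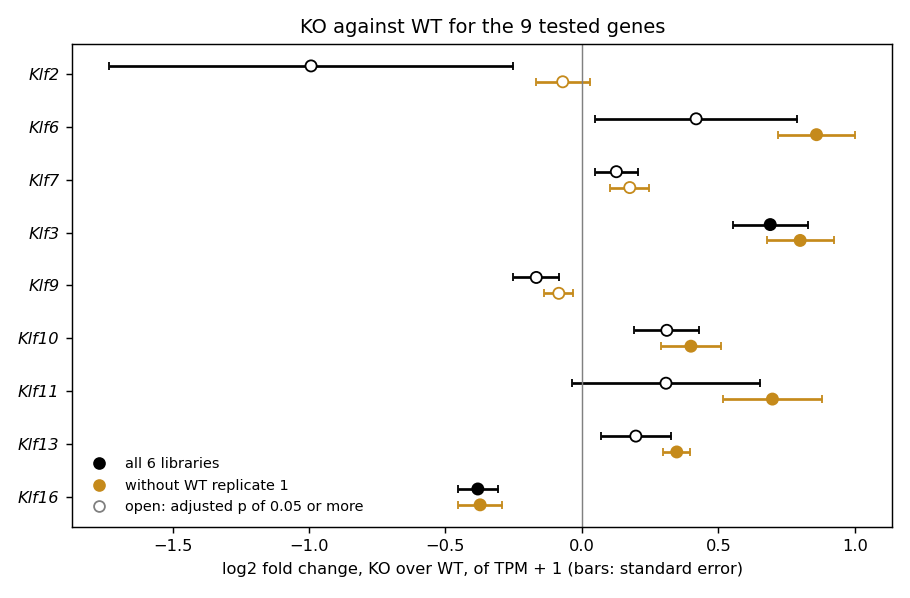
Log2 fold change of TPM + 1, KO over WT, of the 9 tested KLF genes with all 6 libraries (black) and without WT replicate 1 (ochre); bars are standard errors and filled points have an adjusted p under 0.05. Klf3 and Klf16 are filled in both, while Klf2 is at -0.99 with all libraries and -0.07 without WT replicate 1, and Klf6, Klf10, Klf11 and Klf13 are filled only without WT replicate 1.

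WT replicate 1 had the highest value of the 6 libraries for 6 of the 9 tested KLF genes (Klf2, Klf6, Klf9, Klf11, Klf13 and Klf16) and for 24.2% of all tested genes. It exceeded the mean of WT replicates 2 and 3 by 2.57 times for Klf6 and 2.57 times for Klf11, 1.37 times for Klf13 and 1.02 to 1.29 times for Klf3, Klf7, Klf9, Klf10 and Klf16. Many immediate early and handling genes, which cells switch on within minutes of stimulation or stress, also stood high there: WT replicate 1 was the highest library for 9 of the 14 tested. Others went the other way, with Hspa1a, Hspa1b and Egr2 lowest of the 6 libraries in WT replicate 1, at 0.8, 1.7 and 1.4 TPM. The summed level of the 17 listed genes was 644.3, 656.0 and 611.4 TPM in KO, against 866.8, 465.1 and 506.0 TPM in WT. Egr1 (0.6, 0.8 and 0.9 TPM in KO, against 29.0, 0.5 and 0.3 TPM in WT) and Jun (14.4, 12.9 and 11.2 TPM in KO, against 18.7, 0.9 and 4.6 TPM in WT) were chosen after their values were seen, and Egr1 was too low in most libraries to be tested. Egr1 was high in WT replicate 1 alone, as Klf2 was, and Jun was high in it and in the KO libraries, as Klf6 and Klf11 were. The part of these genes or of handling in the KLF values was not tested.

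**Figure D3:**
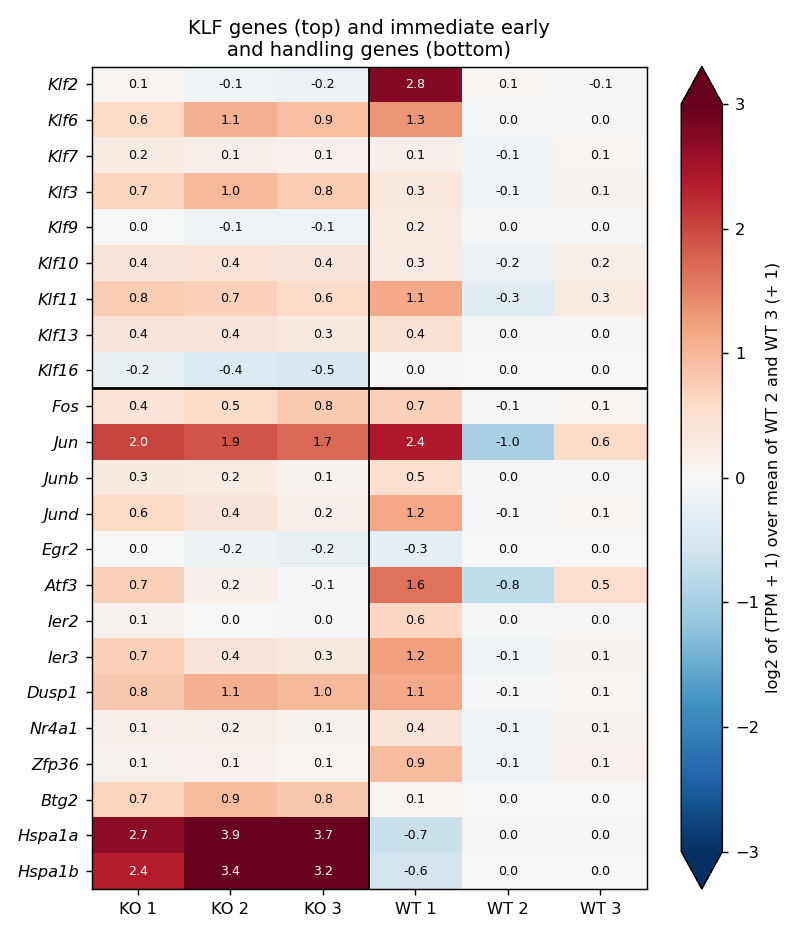
Log2 ratio of TPM + 1 in each library to the mean of WT replicates 2 and 3 (plus 1) for the 9 tested KLF genes (above the line) and the 14 tested immediate early and handling genes (below it); columns are libraries, red is higher and blue lower. Klf2 is red in WT replicate 1 alone, Klf6 and Klf11 are red there and in all KO libraries, and Hspa1a and Hspa1b are red only in KO.

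By level, Klf13 came first in KO with a mean of 68.3 ± 2.24 TPM (SD, n = 3). Klf16, Klf9 and Klf6 followed with means of 38.3, 38.1 and 38.1 TPM, whose ranges overlapped, and then Klf10 and Klf3 with 13.6 and 12.5 TPM, whose ranges overlapped too. Klf7 was at 9.1 TPM, and Klf2 and Klf11 at 6.3 and 5.93 TPM did not separate. In WT the means ran from Klf13 (60.1 TPM) through Klf16 (50.1 TPM), Klf9 (43.0 TPM), Klf6 (31.0 TPM) and Klf2 (21.4 TPM) to Klf10 (10.9 TPM), Klf7 (8.27 TPM), Klf3 (7.4 TPM) and Klf11 (5.1 TPM). From Klf9 down to Klf11 each WT neighbour's range overlapped the next. Without WT replicate 1 the WT mean of Klf2 was 6.65 TPM, between those of Klf3 and Klf11. Its range of 6.3 to 7.0 TPM lay within that of Klf3 (6.1 to 7.4 TPM).

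The summed level of the 10 genes was 230.5, 237.5 and 223.2 TPM in KO, against 314.2, 193.0 and 204.9 TPM in WT. The KO sums fell between WT replicate 1 and the other WT libraries. The 4 activator genes made up 20.9, 24.8 and 24.1% of the sum in KO, against 35.7, 17.7 and 17.4% in WT, and the 5 Sin3-binding genes 74.2, 69.2 and 70.5% in KO, against 61.5, 79.1 and 79.0% in WT. Klf3 alone made up 4.86, 5.98 and 5.42% in KO, against 2.77, 3.16 and 3.61% in WT, with no overlap. Klf2 was 16.2% of the sum in WT replicate 1 and 2.53 to 3.63% in the other 5 libraries.

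**Figure D4:**
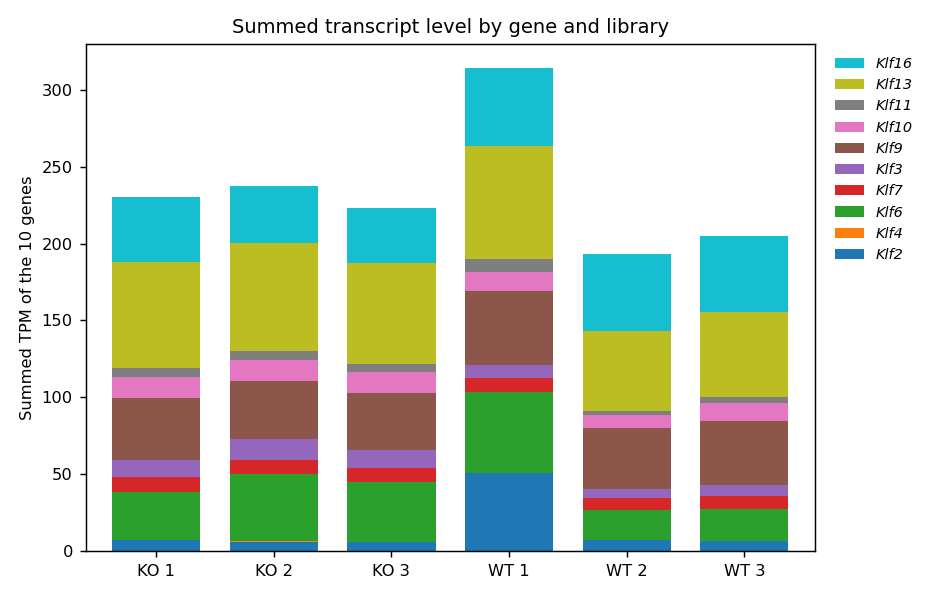
Summed TPM of the 10 KLF genes in each KO (left 3 bars) and WT (right 3 bars) library, split by gene. The bar of WT replicate 1 reaches 314.2 TPM with Klf2 at its base, against 223.2 to 237.5 TPM in KO and 193.0 and 204.9 TPM in WT replicates 2 and 3.

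Genes whose profile over the 6 libraries was most like that of the 3 KLF genes with the largest fold changes were found by Pearson's r of log2(TPM + 1) among 8935 genes of at least 5 TPM on average. Among the 3 genes most like Klf2 were Adam15, a membrane metalloproteinase gene (r = 0.999), and Dpp3, a peptidase gene (0.997). Adam15 was at 35.0, 34.4 and 34.3 TPM in KO, against 42.9, 34.8 and 34.2 TPM in WT, the same single high library. Klf3 was most like Nfxl1, Nfkbil1 and Chst11 (each 0.997). Klf6 was most like Csf2rb (0.998), the common beta chain of the interleukin-3 and GM-CSF receptors, Lgals3bp (0.997) and Rassf5 (0.997). With 6 points that share libraries such values are common: 191 genes had r over 0.95 with Klf2, 423 with Klf3 and 265 with Klf6.

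The rest of the family was mostly silent. Of the 7 other KLF genes, Klf12, Klf14 and Klf15 were listed at 0 in all libraries, Klf8 and Klf17 stayed under 1 TPM, and 2 were tested. Klf1, the erythroid factor, was called higher, at 3.6, 5.1 and 4.6 TPM in KO against 1.5, 1.3 and 2.2 TPM in WT (log2 fold change 1.03, limma adjusted p = 0.016). Klf5 averaged 27.3 ± 1.35 TPM in the KO libraries and 31.2 ± 3.86 TPM in WT (SD, n = 3 each; adjusted p = 0.21).

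The related Sp factors, which bind the same GC boxes, had 5 tested members of 9 listed, and 3 were higher and none lower (limma; 4 higher and 0 lower at an unadjusted p under 0.05). Sp3 rose by 0.22 (60.1 ± 3.01 TPM in KO and 51.3 ± 2.08 TPM in WT, SD, n = 3 each; adjusted p = 0.046), Sp4 by 0.30 (adjusted p = 0.037) and Sp9, a developmental member, by 1.45 (1.2, 3.0 and 2.7 TPM in KO, against 0.1, 0.2 and 0.2 TPM in WT; adjusted p = 0.016). The median log2 fold change of the 5 was 0.22. For all 13575 tested genes the shares called were 12.9% higher and 6.11% lower, and 5161 had an unadjusted p under 0.05. The ubiquitous Sp1 was at 52.5, 55.8 and 52.9 TPM in KO, against 44.6, 47.6 and 48.5 TPM in WT (adjusted p = 0.055).

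Of 11 cofactor genes through which KLFs act, 1 was lower and none higher (limma; 1 lower and 1 higher at an unadjusted p under 0.05). Sin3b, a scaffold of the co-repressor that the Klf9, Klf10, Klf11, Klf13 and Klf16 proteins bind, fell by 0.26 (35.6, 31.4 and 31.5 TPM in KO, against 38.9, 40.5 and 39.3 TPM in WT; adjusted p = 0.040). The CtBP genes used by Klf3 were at means of 59.0 and 14.0 TPM in KO and 62.8 and 12.4 TPM in WT for Ctbp1 and Ctbp2 (limma adjusted p of 0.21 and 0.14). The median log2 fold change of the list was -0.02. Among all 13575 tested genes 12.9% were called higher and 6.11% lower, and 5161 had an unadjusted p under 0.05.

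The kinase ERK5 (Mapk7), MEF2 and FOXO factors are known inputs of Klf2 and Klf4. Of 11 tested genes of that list limma called 0 with all libraries (2 had an unadjusted p under 0.05). It called 3 higher without WT replicate 1, where 21.6% of all tested genes were called higher. With all libraries 12.9% of all 13575 tested genes were called higher and 6.11% lower, and 5161 had an unadjusted p under 0.05. The list's median was 0.06 with all libraries. The smallest adjusted p belonged to Hdac4, a class IIa deacetylase that represses MEF2 (1.77 ± 0.15 TPM in KO and 1.27 ± 0.06 TPM in WT, SD, n = 3 each; adjusted p = 0.062). WT replicate 1 was the highest library for 7 of the 11, and for 24.2% of all tested genes.

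TGF-beta and Smad genes are inputs and outputs of Klf10 and Klf11. Of 12 tested, 3 were higher and none lower (limma; 6 and 0 at an unadjusted p under 0.05), with a median log2 fold change of 0.20. Of all 13575 tested genes 12.9% were called higher and 6.11% lower, and 5161 had an unadjusted p under 0.05. Smad7, the inhibitory Smad that the Klf10 protein represses, rose by 0.44 (6.5, 7.5 and 7.0 TPM in KO, against 5.3, 4.8 and 4.6 TPM in WT; adjusted p = 0.022). The Smad co-repressor genes Ski and Skil rose by 0.22 and 0.39 (adjusted p of 0.046 and 0.049). Smad7, Ski and Skil had no overlap between KO and WT, which held for 42.8% of all tested genes.

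For Klf9, the list of nuclear receptors and glucocorticoid-induced genes had 2 higher and 1 lower of 8 tested. Their median log2 fold change was 0.12, and the shares called over all tested genes were 12.9% higher and 6.11% lower. Nr3c1, the glucocorticoid receptor, rose by 0.34 (3.77 ± 0.29 TPM in KO and 2.77 ± 0.15 TPM in WT, SD, n = 3 each; limma adjusted p = 0.037), and the clock gene Per1 by 0.32 (adjusted p = 0.035). Zbtb16, a zinc finger repressor, fell by 0.58 (2.7, 2.1 and 2.4 TPM in KO, against 4.9, 3.9 and 3.5 TPM in WT; adjusted p = 0.031). Of 3 tested oestrogen-responsive genes, Esr1, which encodes oestrogen receptor alpha, rose by 0.40 (26.4 ± 1.37 TPM in KO and 19.7 ± 0.44 TPM in WT, SD, n = 3 each; adjusted p = 0.015). The other 2 were lower in every KO library than in every WT library without a call, while the groups were fully separate for 42.8% of all tested genes. Rara, a retinoic acid receptor gene, was at 4.7, 4.1 and 4.0 TPM in KO, against 9.4, 5.3 and 5.2 TPM in WT (log2 fold change -0.49, adjusted p = 0.14). Greb1, close to the 1 TPM needed for testing, was at 1.0, 1.0 and 0.9 TPM in KO, against 1.2, 1.2 and 1.1 TPM in WT (log2 fold change -0.14, adjusted p = 0.27). The median of the 3 was -0.14.

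Of 9 tested genes reported as KLF targets, 3 were higher and none lower (limma; 4 and 0 at an unadjusted p under 0.05). Their median log2 fold change was 0.33. Of all 13575 tested genes 12.9% were called higher and 6.11% lower, and 5161 had an unadjusted p under 0.05. Thbd, which encodes thrombomodulin and is activated by KLF2 in endothelium, rose by 1.51 (58.5, 91.8 and 82.6 TPM in KO, against 28.7, 24.0 and 26.1 TPM in WT; adjusted p = 0.012). Cd14, the lipopolysaccharide co-receptor of monocytes, rose by 1.37 (20.7, 36.4 and 34.6 TPM in KO, against 18.9, 8.4 and 8.0 TPM in WT; adjusted p = 0.047), and Smad7 is given above. WT replicate 1 did not show the height of Klf2 in Thbd, and was above the other WT libraries in Cd14. It was the highest of all 6 libraries for 3 of the 9 targets, none of them called, and for 24.2% of all tested genes. Lgals3 was at 86.4, 74.0 and 70.7 TPM in KO, against 202.5, 47.9 and 63.8 TPM in WT, and Itgb7 at 25.7, 19.3 and 17.9 TPM in KO, against 58.7, 24.0 and 27.1 TPM in WT. The third, Tgfb1, was at 591.2 to 609.8 TPM in KO and 578.6 to 654.5 TPM in WT. S1pr1, a KLF2 target of lymphocytes, was listed at 0.1, 0.2 and 0.2 TPM in KO and at 0 in all WT libraries.

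Immediate early and handling genes had 3 higher and none lower of 14 tested (limma; 3 and 0 at an unadjusted p under 0.05). Without WT replicate 1 the list had 6 higher. The share of all tested genes called higher was 12.9% with all libraries and 21.6% without WT replicate 1. With all libraries 5161 of 13575 had an unadjusted p under 0.05. Those called with all libraries were the heat shock genes Hspa1a (17.3, 41.4 and 36.2 TPM in KO, against 0.8, 1.9 and 1.8 TPM in WT; adjusted p = 0.011) and Hspa1b (adjusted p = 0.011), near-identical copies between which the division of reads is uncertain, and Btg2, an antiproliferative early gene (26.3 ± 2.48 TPM in KO and 14.9 ± 0.58 TPM in WT, SD, n = 3 each; adjusted p = 0.011). Over the list the median of the log2 fold changes was 0.05 when every library was used and 0.43 without WT replicate 1.

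**Figure D5:**
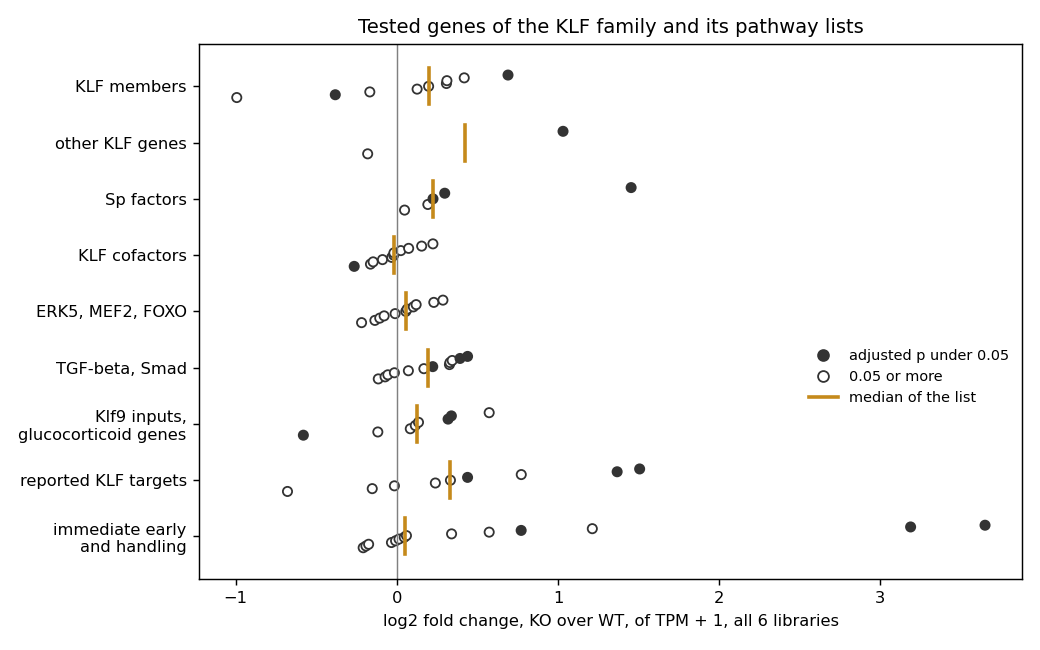
Log2 fold change of TPM + 1, KO over WT with all 6 libraries, of each tested gene in the KLF family (top row) and in 8 lists of relatives, cofactors, inputs and reported targets; filled points have an adjusted p under 0.05 and ochre lines are list medians. The 2 filled KLF genes are Klf3 on the right and Klf16 on the left, and the points farthest right are Hspa1a and Hspa1b.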

How the data were processed

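RNA was measured in 3 KO and 3 WT libraries, grouped by genotype as labelled, from stranded libraries of polyadenylated RNA, per the labels' protocols. The submitters' processing notes name STAR 2.6.1e and featureCounts 1.6.2, after trimming by Trim Galore 0.4.2 with cutadapt 1.9.1, and the build mm10. How TPM was made from counts, which annotation was used and whether counting used strand: not given in the sources used here. Each deposited file holds 1 TPM per gene symbol, to 0.1; TPM scales each library to the same total, which makes every value a share.

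A gene needed 1 TPM in 3 or more libraries, which 22294 did not reach. The contrast KO minus WT was fitted to log2(TPM + 1) by limma 3.58.1 under R 4.3.3 (genotype alone in the model, trended eBayes, two-sided), and the code was tested on simulated data. Alternatives were pseudocounts of 0.1, 0.5 and 5, leaving the filter out, a minimum mean of 5 TPM, quantile normalization, median centring, a replicate block, eBayes without a trend, array weights, each library left out, and KO replicate 1 with WT replicate 1 left out. Gene positions are from GENCODE M21 and sequences from RefSeq on GRCm38.p6.

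The KLF genes and all lists were chosen with earlier results of these data known. All 10 KLF genes are named; in each list, up to 3 called genes per direction with the smallest adjusted p, or the smallest adjusted p where none was called. The marker genes above 0, Klf5, Klf8, Klf17, Sp1, Ctbp1, Ctbp2, S1pr1, Lgals3, Itgb7, Tgfb1, Rara, Greb1, Egr1 and Jun fall outside this rule, and 1 gene that it names is not reported here. No pair of libraries shared the same TPM in over 8.48% of tested genes, so none was counted as a duplicate.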

Additional observations from a re-analysis of the deposited data

How the results depend on the processing

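Over 17 alternatives, all 9 tested KLF genes kept their direction except Klf11, whose log2 fold change ran from -0.030 (without WT replicate 2) to 0.70 (without WT replicate 1) when 1 library was left out. Klf3 and Klf16 each kept their call in 12 of 17, and their log2 fold changes lay between 0.50 and 0.87 and between -0.45 and -0.33. The counts are those at a limma adjusted p under 0.05.

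When 1 library was left out, the number of genes called lay between 0 (without KO replicate 3, where 3381 had an unadjusted p under 0.05) and 4850, and the KLF genes called higher between 0 and 5 and lower between 0 and 1. In each fit with 0 KLF genes called, 1 had an unadjusted p under 0.05 on the higher side and 1 or 2 on the lower. In those of them with 1 library left out, 3220 to 3886 of all 13575 tested genes had such a p. The ranges were 0 to 1 for the rest of the family, 0 to 4 for Sp factors, 0 to 1 for cofactors, 0 to 3 for ERK5, MEF2 and FOXO inputs, 0 to 4 for TGF-beta and Smad genes, 0 to 4 for Klf9 inputs, 0 to 5 for reported targets, 0 to 6 for immediate early genes and 0 to 1 for oestrogen-responsive genes.

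With KO replicate 1 and WT replicate 1 both left out, 7569 of 13575 genes were called (55.8%, with 28.4% higher), and 3 of 9 KLF genes higher. Among cofactors 4 of 11 were called, and among ERK5, MEF2 and FOXO inputs 4 of 11. The counts were 6 of 12 TGF-beta and Smad genes, 6 of 8 Klf9 inputs and 7 of 9 reported targets. For immediate early genes the count was 9 of 14, and for oestrogen-responsive genes 2 of 3. With limma's array weights, whose estimation stopped before it converged, 9429 of 13575 genes were called. Of 9 KLF genes, 5 were then higher and 2 lower. Called too were 2 of 2 others of the family, 5 of 5 Sp factors and 8 of 11 cofactors. The counts were 5 of 11 ERK5, MEF2 and FOXO inputs, 10 of 12 TGF-beta and Smad genes and 7 of 8 Klf9 inputs. They were 7 of 9 reported targets, 7 of 14 immediate early genes and 3 of 3 oestrogen-responsive genes. The cause of these counts was not tested.

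The replicate number as a block gave 333 called genes of 13575 and 0 calls for the KLF genes in either direction (Klf3 adjusted p = 0.093, Klf16 adjusted p = 0.066), and 0 for the rest of the family, Sp factors, cofactors, TGF-beta and Smad genes, Klf9 inputs, reported targets and oestrogen-responsive genes. Libraries of the same number did not deviate together (r across genes of -0.20, -0.15 and -0.16), and pairs of other numbers ran from -0.21 to 0.23. With 3 libraries per group these values cannot show whether libraries of the same number shared a preparation. At an unadjusted p under 0.05 the block left 1 KLF gene higher and 1 lower, with 1 other of the family, 4 Sp factors and 2 cofactors. It also left 4 TGF-beta and Smad genes, 3 Klf9 inputs, 5 reported targets and 2 oestrogen-responsive genes. Of all 13575 tested genes, 4223 had such a p with the block.

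With no filter 2 KLF genes were higher, Klf4 being the second at 0.1 to 0.2 TPM, and 1 ERK5, MEF2 or FOXO input was called. With a mean of at least 5 TPM, which tests fewer genes, 1578 of 10041 genes were called. So were 0 of 1 other of the family, 1 of 3 Sp factors and 1 of 5 Klf9 inputs. Quantile normalization called 3068 of 13575 genes. Among them were 1 of 11 ERK5, MEF2 and FOXO inputs, 1 of 8 Klf9 inputs and 2 of 3 oestrogen-responsive genes. This normalization made 43.9% of all calls higher in KO, against 67.8% with the TPM as deposited. Median centring called 3412 of 13575 genes, 46.0% of them higher. Called with it were 1 of 11 ERK5, MEF2 and FOXO inputs and 1 of 12 TGF-beta and Smad genes. Fitting eBayes without a trend called 2257 of 13575 genes, 1 of 11 ERK5, MEF2 and FOXO inputs among them.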
